A study of Mus musculus with 20 samples.

Results

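Whole-lung RNA of wild-type female C57Bl6 mice that received house dust mite (HDM) was compared with whole-lung RNA of wild-type female C57Bl6 mice that received saline. The comparison uses 10 of the 20 libraries in the series, 5 in the group WT_saline and 5 in the group WT_HDM, and each library is a biological replicate by its label. The other 10 libraries are labelled Alox15 knockout and enter an alternative fit only. HDM extract was given into the nose each day for 14 days. The age of the mice, the HDM dose and the schedule of the saline are not given in the sources used here. All genes of the 10 libraries with enough counts for a test were described, which were 15693 of the 24054 genes in the table. Because frozen lungs were homogenised whole, each level is a sum over all cell types, and fewer cells of a type and less RNA per cell cannot be told apart.

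HDM is an inhaled allergen that carries proteases, chitin and microbial products. Airway epithelium that meets it releases alarmins such as the cytokine IL-33, which act on innate and T helper lymphocytes that make type 2 cytokines. Those cytokines activate the transcription factor STAT6 in macrophages and airway epithelium, draw in eosinophils and turn club cells, the secretory cells of the small airways, toward mucus production. The gas-exchanging part of the lung consists of flat alveolar type 1 cells, surfactant-making alveolar type 2 cells, a dense capillary bed and resident alveolar macrophages.

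Total expected counts were between 15601878 and 21715842 in WT_saline and between 12573113 and 20662632 in WT_HDM. Of 10 lung markers, all were found in every library, from the type 2 cell gene Sftpc at 4264 to 9961 CPM (counts scaled to library size) down to the macrophage receptor Marco at 1.09 to 92.0 CPM. Markers of other tissues varied between libraries. Adipoq of fat cells was at 85.4 to 173 CPM in WT_saline 2 and 4 and WT_HDM 2 and 4, and at 0.611 to 5.38 CPM in the other 6 libraries. The heart gene Myh6 reached 1554 CPM in WT_saline 2 and 2473 CPM in WT_HDM 4, the skeletal muscle gene Ckm 426 CPM in WT_HDM 2, and the lymph node gene Glycam1 742 CPM in WT_saline 4. Of the liver genes Alb was at most at 0.805 CPM and Ttr at most at 0.0531 CPM. The ribosomal transcript Rn45s took 2.22% ± 0.841 of counts under saline and 4.48% ± 1.38 under HDM (SD, n = 5 and 5; exact two-sided permutation p = 0.0238, where 0.00794 is the smallest possible). The first principal component of log levels, with 43.3% of the variance, placed WT_saline between -56.0 and -8.11 and 4 WT_HDM libraries between 29.7 and 57.4, with WT_HDM 5 at -2.17, beside the saline libraries. In the fit of the 10 libraries 0 members of the fat, heart and skeletal muscle lists were called, although the skeletal muscle list had a median log2 fold change of 5.61 over its 5 tested members. With all 20 libraries 8 skeletal muscle genes were called higher, and in the 6 libraries with little Adipoq 2 fat genes were called lower. Their part in other changes was not tested beyond the fits given in the closing section.

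HDM changed the level of 2854 genes, 18.2% of the 15693 tested, at an adjusted p under 0.05 in edgeR's quasi-likelihood test. The higher genes numbered 1399 (8.91%) and the lower genes 1455 (9.27%), but the large changes were rises. A change of at least 2-fold was found for 868 genes (5.53%), 628 of them higher (4.00%) and 240 lower (1.53%). A rise of at least 4-fold was found for 189 genes and a fall of that size for 15. The 5 HDM libraries and the 5 saline libraries did not overlap in 1809 genes (11.5%), with HDM above in 980 (6.24%) and below in 829 (5.28%). Of the 2854 calls, 1406 were made in all 10 fits that leave out a library in turn (843 higher and 563 lower), and genes written below as risen or fallen belong to these unless a lost call is given. Named genes whose calls were lost in the 6 libraries with little Adipoq are given in their paragraphs or in the closing section. The number of calls was 1623 without WT_saline 5, 1641 without WT_saline 3, 1698 without WT_HDM 3, 1725 without WT_HDM 1 and 1736 without WT_HDM 2. It was 3919 without WT_HDM 5.

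**Figure D1:**
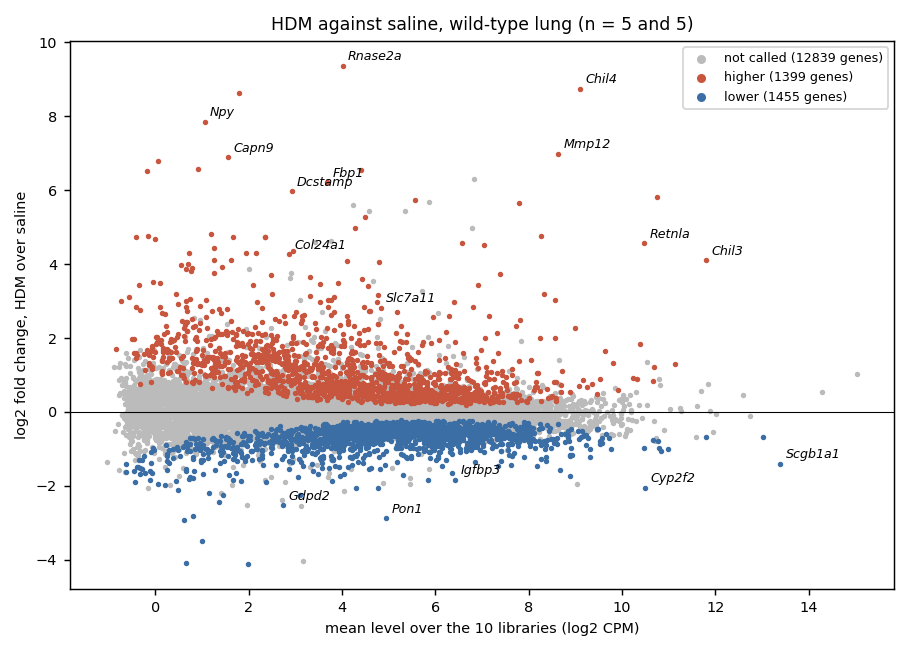
Log2 fold change of HDM over saline (vertical axis) against the mean level over the 10 libraries (horizontal axis, log2 CPM), with 1 point for each of the 15693 genes tested. Red points are the 1399 genes called higher and blue points the 1455 called lower; rises reach a log2 fold change of 9.37 for Rnase2a, while Pon1 lies at -2.88 among the falls.

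More than 50% of the tested members were called higher in the lists of alternative macrophage activation, lipid-associated macrophages, lysosomes, mucus, MHC class II presentation, pattern recognition, acute phase genes, eosinophils and cell division. More than 50% were called lower in the lists of club cells, xenobiotic metabolism, natural killer cells, BMP and TGF-beta signalling and red cells. The counts below are of tested members, to be read against 8.91% of all genes called higher and 9.27% called lower, and list medians against the median log2 fold change of -0.02 over all genes. Because the lists were chosen with earlier results of these data known, a share above these values is a description and not a test. Values in parentheses after a gene are log2 fold changes of HDM over saline.

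**Figure D2:**
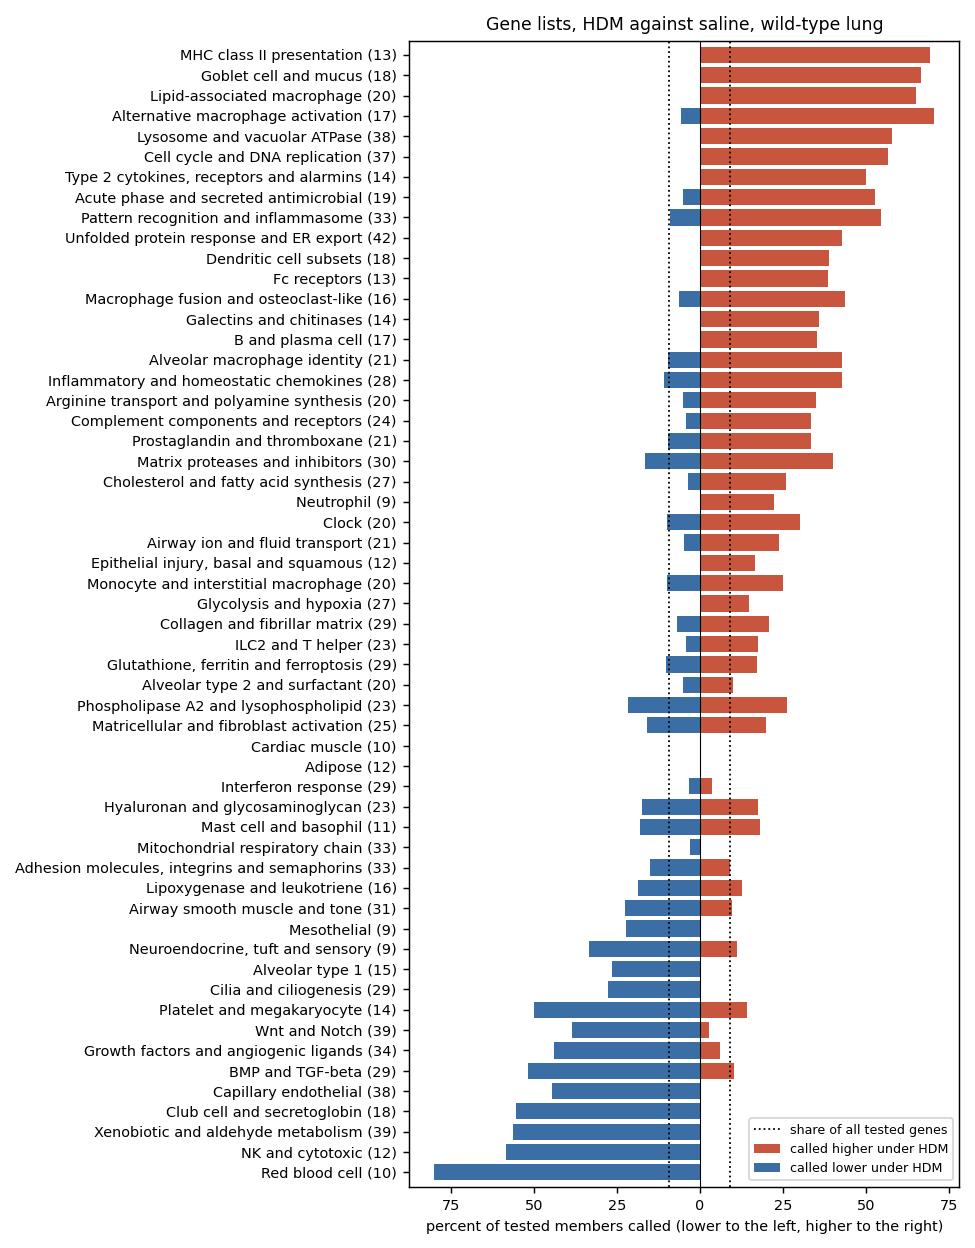
Share of the tested members of each gene list with 9 or more of them (number in parentheses) that were called higher under HDM (red, to the right) or lower (blue, to the left), in percent, with dotted lines at the shares over all 15693 genes, 8.91% and 9.27%. Lists of MHC class II presentation, mucus and lipid-associated macrophage genes lie at the top and lists of red cell, natural killer, xenobiotic and club cell genes at the bottom.

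The order of transcript levels in the lung changed at its top. Levels here are CPM per kilobase of the longest coding transcript, or of the longest transcript where a gene has no coding one. On this scale genes can be set beside each other. A length was found for 15281 of the tested genes, but not for Rn45s, which has no rank. Scgb1a1, the main secreted protein of club cells, was the most abundant transcript under saline at 32678 CPM per kilobase and took rank 2 under HDM at 12384. Rank 1 under HDM was the short non-coding RNA Rpph1, at 14533 and at rank 4 under saline with 8675. Rmrp, another short non-coding RNA, held rank 3 in both groups. The cytokine-like protein gene Retnla moved from rank 216 to rank 5 (191 and 4536 CPM per kilobase), and the chitinase-like gene Chil3 from rank 143 to rank 6 (253 and 4373). Under HDM these transcripts thus stood just below Sftpc, which held rank 2 and rank 4 at 8995 and 8293 CPM per kilobase and was not called (log2 fold change -0.12, adjusted p = 0.817). The lysosomal lipid-binding precursor Psap moved from rank 81 to 23, the surfactant lectin Sftpd from 74 to 21, and the mucus-cell gene listed as Clca3, now named Clca1, from 4078 to 22. Cbr2, a lung carbonyl reductase, moved down from 10 to 24, and the club cell oxidase Cyp2f2 from 13 to 117. Genes called higher by at least 2-fold made up 0.974% to 1.29% of the counts of the saline libraries and 3.59% to 5.65% of those of the HDM libraries. Genes called lower by at least 2-fold made up 3.51% to 4.62% and 1.26% to 2.14%.

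**Figure D3:**
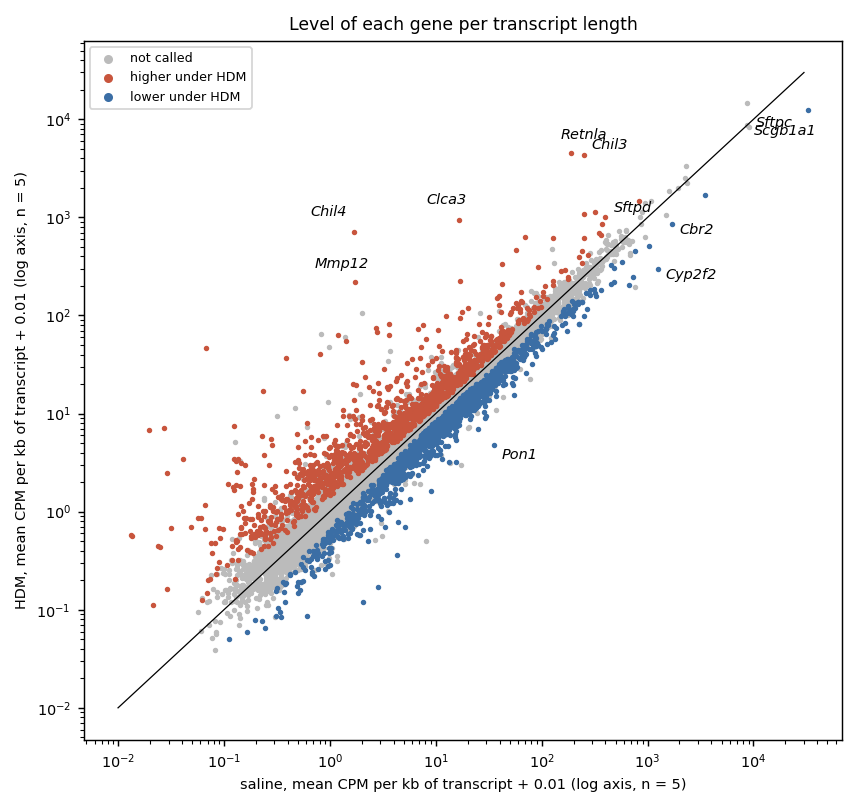
Mean level of each gene per kilobase of transcript in the 5 saline libraries (horizontal) and the 5 HDM libraries (vertical), both on log axes with 0.01 added, with the line of equal levels; red genes were called higher, blue genes lower and grey genes were not called. Scgb1a1 lies below the line at the upper right, and Retnla and Chil3 lie above it at 4536 and 4373 CPM per kilobase under HDM.

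Genes on the list of alternative macrophage activation were among the most abundant of those that rose. Which cells made these transcripts was not determined. Retnla was at 121, 218, 74.9, 108 and 49.8 CPM in the 5 saline libraries and at 3010.3, 3903, 2699.5, 1892 and 2079 CPM in the 5 HDM libraries. Every HDM library lay above every saline library by a wide margin, with a log2 fold change of 4.57 ± 0.41 (SE; adjusted p = 0.000101). Pdcd1lg2, the second ligand of the inhibitory receptor PD-1 and a known type 2 activation marker, was at 3.16, 1.82, 2.28, 5.97 and 1.36 CPM and 24, 31.8, 34.5, 19.6 and 10.1 CPM, without overlap (3.03 ± 0.45; adjusted p = 0.00192). Ccl17, a chemokine that attracts T helper cells through CCR4, was at 4.52, 2.75, 2.56, 5.28 and 3.51 CPM and 48.6, 36.8, 18.7, 8.07 and 10.4 CPM, again apart (2.71 ± 0.51; adjusted p = 0.00623). Of 17 tested genes of alternative macrophage activation 12 were called higher, 9 of them in all 10 fits, and 1 lower (list median 1.86). The members called in all 10 fits were Chil4 (8.75), Arg1 (5.73), Retnla, Chil3 (4.11), Ccl8 (4.09), Pdcd1lg2, Egr2 (1.86), Mrc1 (1.17) and Fn1 (0.90). Chil3 and Chil4 are near-identical neighbours whose reads RSEM may have split between them. The log2 fold change of Chil4 was 8.11 without WT_HDM 3, and that of Ccl8 4.95 without WT_saline 4.

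The promoters of Retnla, Ccl17 and Pdcd1lg2 are shown because all 3 rose and each holds TTC, 4 bases of any kind and GAA, the spacing that STAT6 is known to bind. The sequences are the 250 bases before the gene start in RefSeq's GRCm38.p6, 5′ to 3′ on the strand of the gene, at chr16:48842359-48842608, chr8:94810203-94810452 and chr19:29410669-29410918, all on the + strand, with the match in capitals.
Retnla: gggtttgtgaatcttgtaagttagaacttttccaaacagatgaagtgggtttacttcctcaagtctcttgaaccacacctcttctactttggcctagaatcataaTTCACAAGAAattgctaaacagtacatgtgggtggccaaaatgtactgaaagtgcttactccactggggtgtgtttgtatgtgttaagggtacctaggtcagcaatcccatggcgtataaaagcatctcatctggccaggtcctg
Ccl17: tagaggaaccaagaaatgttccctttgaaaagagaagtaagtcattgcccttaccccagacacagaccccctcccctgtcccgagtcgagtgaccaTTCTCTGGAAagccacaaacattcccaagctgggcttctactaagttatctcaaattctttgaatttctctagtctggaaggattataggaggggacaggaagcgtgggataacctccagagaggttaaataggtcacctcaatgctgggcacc
Pdcd1lg2: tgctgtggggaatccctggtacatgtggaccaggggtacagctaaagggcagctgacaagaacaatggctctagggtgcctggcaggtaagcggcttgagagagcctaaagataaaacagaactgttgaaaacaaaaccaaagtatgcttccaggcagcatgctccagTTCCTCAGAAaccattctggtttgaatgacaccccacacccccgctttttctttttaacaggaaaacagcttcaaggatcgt
The match begins 145 bases before the start in Retnla, 154 in Ccl17 and 82 in Pdcd1lg2. In windows from 250 bases before to 50 after a start, searched on both strands, these letters were in 6.99% of 27025 promoters and in 5.38% of the 12276 promoters of tested genes. They were in 4 of the 16 promoters found for the 20 largest rises (Retnla, Capn9 and the near-identical Sprr2a1 and Sprr2a2) and in 0 of the 14 found for the 20 largest falls. Among alternative macrophage activation genes they were in 2 of the 8 promoters found for those called higher and 0 of 1 not called. Among type 2 cytokine, receptor and alarmin genes they were in 3 of the 5 found for those called higher and 0 of 6 not called. A match is a description of letters and not of binding.

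Some genes for arginine use and cell fusion rose, Arg1 and Dcstamp by most among those described here. Arg1, the arginase that competes with nitric oxide synthase for arginine, was at 2.17, 1.35, 1.52, 1.75 and 1.90 CPM and 102, 136, 118, 90.7 and 15.9 CPM. WT_HDM 5 was the lowest HDM library and still lay above all saline libraries (5.73 ± 0.54; adjusted p = 0.000208). The arginine transporter Slc7a2 (1.39), the inducible nitric oxide synthase Nos2 (1.40), the polyamine regulator Azin1 (0.44) and the proline enzyme Pycr1 (0.81) rose too, within a list of 20 of which 7 were called higher and 1 lower; in the 6 libraries with little Adipoq 4 were called higher, and Nos2, Azin1 and Pycr1 were not. Odc1, which makes the first polyamine, was not called (0.09, adjusted p = 0.586). Of 16 genes of macrophage fusion and osteoclasts 7 were called higher and 1 lower. Dcstamp, a membrane protein needed for macrophage fusion, was at 0.186, 0.260, 0.217, 0.0460 and 0.438 CPM and 16, 22, 21.8, 7.43 and 7.17 CPM (5.97 ± 0.52; adjusted p = 9.51e-05). The bone-type protease Ctsk (2.97), the proton pump subunits Atp6v0d2 (2.18) and Tcirg1 (1.06), Tnfrsf11a (0.67), which encodes the receptor RANK, and Ostm1 (0.33) rose, whereas the integrin Itgb3 (-0.40) fell and Calcr, Nfatc1 and Mmp9 were not called. In the 6 libraries with little Adipoq 6 fusion and osteoclast genes were called higher and 0 lower, and Ostm1 and Itgb3 were not called.

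Lysosomal genes on the list were called higher or not called. Of 38 genes of lysosomal enzymes and the vacuolar proton pump 22 were called higher, 17 of them in all 10 fits, and 0 lower (list median 0.47), and their summed level was 5644 to 7186 CPM under saline and 9745 to 12457 CPM under HDM, without overlap. In the 6 libraries with little Adipoq 14 were called higher, and Atp6v0b, Atp6v0c and Atp6v1c1 were not. Ctss, the cathepsin that trims the invariant chain of MHC class II, was at 174, 125, 168, 225 and 175 CPM and 1096, 832, 844, 759 and 693 CPM (2.28 ± 0.17; adjusted p = 4e-05). Psap, which is cut into the saposins that help to break down sphingolipids, was at 705, 972, 988, 1215 and 1034 CPM and 2630.3, 2590.2, 2274, 2251 and 1755 CPM (1.23 ± 0.17; adjusted p = 0.00116). In both the highest saline library stayed below the lowest HDM library. The cathepsins Ctsz (1.09), Ctsc (1.05), Ctsd (0.90), Ctsh (0.80) and Ctsb (0.75), the acid lipase Lipa (0.90), the galactosidase Gla (1.07), the hexosaminidase Hexa (0.60) and the pump subunits Atp6ap2 (0.62), Atp6v0b (0.58), Atp6v1b2 (0.56), Atp6v0c (0.54) and Atp6v1c1 (0.37) rose by smaller steps. So did Mitf (1.18), a transcription factor of lysosomal genes. The membrane proteins Lamp1 (-0.01, adjusted p = 0.948) and Lamp2 (0.31, adjusted p = 0.123) were not called.

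Genes of lipid-associated macrophages rose in 13 of 20 members and fell in 0 (list median 1.09). Trem2, a lipid receptor, was at 1.73, 1.30, 2.12, 1.88 and 2.43 CPM and 28.3, 21.7, 24.2, 17.6 and 13.4 CPM (3.46 ± 0.24; adjusted p = 2.89e-05). Itgax, the integrin chain CD11c of alveolar macrophages and dendritic cells, was at 67.5, 56, 80.1, 60.1 and 78.9 CPM and 524, 357, 438, 291 and 301 CPM (2.48 ± 0.19; adjusted p = 3.68e-05). Both were several times higher in every HDM library. Gpnmb (2.61), Pla2g7 (1.88), Spp1 (1.68), Lhfpl2 (1.63), Lgals3 (1.21), Cd68 (1.16), Fabp5 (1.15), Lgmn (1.06), Cstb (0.88) and Cd63 (0.80) rose, while the cholesterol carriers Apoe (-0.07, adjusted p = 0.874), Abca1 (0.06, 0.68) and Abcg1 (0.06, 0.875) were not called. Alveolar macrophage genes were mixed, with 9 of 21 called higher and 2 lower. The oxidised lipid receptor Olr1 (2.34) and the GM-CSF receptor chain Csf2ra (1.24) rose, Fabp1 fell (-2.83), and Pparg, the regulator of these cells, was not called (0.23, adjusted p = 0.716). Monocyte and interstitial macrophage genes were also mixed. The complement genes C1qb (1.57) and C1qa (1.31) and the membrane protein gene Ms4a7 (2.50) rose, Emr4 fell (-0.92), and Csf1r and Ccr2 were not called (0.14 and 0.45, adjusted p = 0.48 and 0.247).

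Receptors for microbial products were a further group of rises. Of 33 pattern recognition and inflammasome genes 18 were called higher, 14 in all 10 fits, and 3 lower (list median 0.69). In the 6 libraries with little Adipoq 12 were called higher and 1 lower, and Aim2, Tlr2 and Casp4 were not called. Clec7a, the beta-glucan receptor Dectin-1, was at 58.4, 29, 39, 31.8 and 44.5 CPM and 362, 254, 269.7, 155 and 183 CPM, with all HDM libraries above all saline libraries (2.59 ± 0.26; adjusted p = 0.000208). The related lectins Clec4a2 (2.62), Clec4n (2.38), which recognises fungal and mite glycans, and Clec4d (1.51) rose. The endotoxin sensors Cd14 (1.12), Ly96 (1.06) and Tlr4 (0.69), the nucleic acid sensors Tlr7 (0.95), Tlr13 (0.94) and Aim2 (0.98), Tlr2 (0.68), Nlrp1b (1.48), Casp4 (0.58) and the interleukin 1 antagonist Il1rn (1.93) rose as well. The flagellin receptor Tlr5 fell (-0.67), and Nlrp3 and Il1b were not called (0.26 and 0.56, adjusted p = 0.471 and 0.146). Of the interferon-induced genes, 1 of 29 was called higher (Oas1a (0.72)) and 1 lower (Ifit2 (-0.70)), with a list median of 0.05.

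Chemokine genes changed in both directions. Of 28 tested, 12 were called higher, 9 in all 10 fits, and 3 lower. Ccl9 was at 22.2, 21.6, 20.1, 16.5 and 21.7 CPM and 280.4, 273, 284, 171 and 94.5 CPM (3.44 ± 0.29; adjusted p = 9.51e-05), and Ccl6 at 97, 64.3, 85, 65.1 and 102 CPM and 1054, 578, 692, 497 and 534 CPM (3.02 ± 0.24; adjusted p = 4.29e-05). Both are macrophage chemokines that act through CCR1, and for both the groups were apart. The neutrophil attractants Cxcl3 (4.73) and Cxcl1 (2.07), the CCR6 ligand Ccl20 (4.45), which epithelium makes, Ccl3 (2.68) and Cxcl16 (0.92) rose. Cxcl14, a chemokine of resting epithelium and stroma, fell (-1.22), as did the platelet chemokine Ppbp (-1.29). Cxcl9, Cxcl10 and Ccl5, which draw in cytotoxic and type 1 lymphocytes, were not called (1.05, 0.80 and -1.77; adjusted p = 0.321, 0.172 and 0.0751), nor were Cxcl12 and Cxcl15. Cxcl9 was called higher without WT_saline 4 (2.41, adjusted p = 0.00179) and in the 6 libraries with little Adipoq (2.75, 0.00679), and Ccl5 was called lower in 3 alternatives. Among acute phase and antimicrobial genes 10 of 19 were called higher and 1 lower. Lcn2, a siderophore-binding protein, was at 45, 61.8, 73.3, 57.3 and 78.1 CPM and 952, 688, 476, 299 and 479 CPM (3.20 ± 0.30; adjusted p = 0.000129). Saa3 (4.98), Wfdc17 (3.40), Slpi (2.56), Chia1 (2.33), Ptx3 (2.27), Itih4 (1.19) and Cp (0.53) rose, and haptoglobin, Hp, fell (-1.16). The complement genes Cfi (2.57), a protease that cuts C3b, C3ar1 (2.15), a receptor, and C3 (1.30) rose, and C4b and Cfp were not called.

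The transcripts of lymphocytes and granulocytes changed less uniformly. Il33, the alarmin, was at 78.6, 78.7, 82, 79.6 and 85 CPM and 338, 295, 256, 164 and 177 CPM; the saline libraries lay close together and all below the HDM libraries (1.60 ± 0.19; adjusted p = 0.000429). The eotaxins Ccl24 (3.72), whose call was lost in limma voom (adjusted p = 0.103), and Ccl11 (2.98), their receptor Ccr3 (2.86) and the eosinophil granule gene Prg2 (3.90), 4.62 without WT_saline 4, rose. Rnase2a, a member of the multigene family of eosinophil-associated ribonucleases, had 4 counts over all 5 saline libraries and 2590 over the HDM libraries. The family name does not tell which cells made it, and the cells were not determined. Il4, Il13, Il25 and Il9 had too few counts for a test, and Il5 (0.671 and 0.571 CPM), Tslp (2.98 and 2.13 CPM) and Il4ra (0.21, adjusted p = 0.215) were not called. The mucosal mast cell protease genes Mcpt1 and Mcpt2, which are near-identical relatives, rose. Mcpt1 had 1 count over the saline libraries and was at 7.88, 3.49, 14.9, 5.79 and 2.37 CPM under HDM. The connective tissue mast cell genes Cpa3 (-0.56, adjusted p = 0.65) and Mcpt4 (-1.50, 0.332) were not called, and Gata2 (-1.08) fell.

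Natural killer cell genes were called lower or not called. Of 12 cytotoxic genes 7 were called lower and 0 higher (list median -0.97), with summed levels of 64.1 to 144 CPM under saline and 35.4 to 54.5 CPM under HDM. S1pr5 (-1.18), Klrb1c (-1.10), Gzma (-1.05), Prf1 (-1.03) and Ncr1 (-0.84), the receptor NKp46, fell in all 10 fits. Genes of innate type 2 lymphocytes (ILC2) and T helper cells gave 4 higher and 1 lower of 23. Of these calls only that of the inhibitory receptor Tigit (1.84) was kept in all 10 fits. The T cell gene Cd3e was not called (-0.57, adjusted p = 0.552). In the fit without WT_saline 4, the library with 742 CPM of Glycam1, 12 of the ILC2 and T helper genes were called higher. So were 15 of the B and plasma cell genes in place of 6. What part the lymphoid RNA of WT_saline 4 has was not tested further. Plasma cell genes rose in the full set: Igj, the joining chain of secreted antibodies, was at 7.12, 36.9, 16.3, 50.5 and 6.33 CPM and 322, 484, 139, 394 and 212 CPM (3.72 ± 0.66; adjusted p = 0.00555). All HDM libraries lay above all saline libraries for Igj. Pigr, the epithelial receptor that carries such antibodies into the airway, was at 95.1, 263, 106, 173 and 124 CPM and 668, 539, 800.0, 466 and 573 CPM (2.00 ± 0.28; adjusted p = 0.00116), also apart. Mzb1 (2.61), 3.33 without WT_saline 4, Derl3 (2.19) and Xbp1 (0.51) rose, while the B cell gene Ms4a1 was not called (1.53, adjusted p = 0.0669) but was called higher in 8 alternatives, without WT_saline 4 by 2.17. The IgG receptors Fcgr2b (1.89) and Fcgr3 (1.61) and the IgA and IgM receptor Fcamr (2.08) rose.

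Of 13 genes of MHC class II presentation 9 were called higher, 5 of them without WT_saline 3 and 5 in all 10 fits: Ctss, the lysosomal reductase Ifi30 (1.45), H2-Aa (0.87), H2-DMb1 (0.79) and H2-DMa (0.77). Their summed level was 1870.3 to 4128 CPM under saline, where WT_saline 4 was highest, and 4397 to 6201 CPM under HDM. Of 18 dendritic cell genes 7 were called higher, among them Batf3 (2.18), Flt3 (0.94), Mgl2 (0.94), Xcr1 (0.74) and Sirpa (0.61). These mark both the cross-presenting and the CD11b-type lineage.

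Genes of lipid mediators moved on several branches. Prostaglandin genes gave 7 higher and 2 lower of 21. The cyclooxygenase Ptgs1 (0.69), the thromboxane synthase Tbxas1 (1.59) and the prostaglandin D synthase of blood cells, Hpgds (1.2), rose, while Ptgs2, the inducible cyclooxygenase, was not called (-0.33, adjusted p = 0.286). Among the receptors Ptgdr, for prostaglandin D2, was at 0.124, 0.260, 0.0544, 0.230 and 0.146 CPM and 1.83, 0.724, 7.48, 2.28 and 1.29 CPM, without overlap though at low levels (3.97 ± 0.69; adjusted p = 0.00372; 3.17 without WT_HDM 3). Ptgir (1.46) and Ptger2 (0.59) rose, and Cbr2 fell (-0.97). Of 23 phospholipase A2 and lysophospholipid genes 6 were called higher and 5 lower, the latter 3 without WT_saline 3 or 5 or WT_HDM 2 or 3. Pla2g4c, a cytosolic phospholipase, was at 0.0619, 0.936, 0.381, 0.276 and 0.438 CPM and 7.33, 7.63, 15.1, 6.79 and 5.54 CPM (4.30 ± 0.48; adjusted p = 0.000363). The platelet-activating factor acetylhydrolase Pla2g7, the receptor Ptafr (1.12), Lpcat2 (0.73) and Sgpl1 (0.55) rose, and the lipid phosphatase Ppap2b (-1.18), Lpar3 (-0.80) and S1pr3 (-0.72) fell. Of 16 lipoxygenase and leukotriene genes 1 was called in all 10 fits, Alox12 (-1.36), a fall. Alox15, which the knockout mice of the series are labelled for, was at 0.805, 11.1, 5.27, 3.86 and 2.04 CPM and 12.7, 20.3, 29.9, 23.3 and 7.91 CPM. Its groups overlapped, and its call (2.02 ± 0.60; adjusted p = 0.0434) was lost in 7 of the 10 fits, as listed in the closing section. Ch25h, which makes the oxysterol 25-hydroxycholesterol, was at 2.85, 1.56, 2.77, 2.34 and 2.78 CPM and 20.7, 16.3, 18.2, 11.6 and 8.31 CPM (2.61 ± 0.27; adjusted p = 0.000208), and Cyp7b1 (1.47), the next enzyme on that route, rose with it. The sterol synthesis genes Mvd (0.95), Cyp51 (0.86) and Idi1 (0.49) rose and Nr1h3 (-0.45), the oxysterol receptor LXR alpha, fell.

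Genes of protein folding and export in the endoplasmic reticulum were called higher or not called. Of 42 genes 18 were called higher, 15 in all 10 fits, and 0 lower (list median 0.30); in the 6 libraries with little Adipoq 8 were called higher, and Hspa5, Hsp90b1, Pdia4, Pdia6, Creld2, Dnajb9, Dnajb11 and Xbp1 were not. Sdf2l1, a chaperone partner, was at 7.74, 8.47, 12.5, 18.1 and 12.6 CPM and 40.9, 43.5, 32, 31.5 and 22 CPM (1.51 ± 0.25; adjusted p = 0.00288). The groups were apart, with WT_HDM 5 lowest among the HDM libraries. Hspa5, the main chaperone BiP, was at 469 ± 67.5 CPM under saline and 749.6 ± 150.2 CPM under HDM (SD, n = 5 and 5) and rose (0.68). Derl3 (2.19), Edem1 (1.10), Manf (0.89), Sec11c (0.89), Pdia4 (0.78), Creld2 (0.71), Hsp90b1 (0.60), Ssr3 (0.58), Dnajb9 (0.55), Edem2 (0.51), Xbp1, Dnajb11 (0.49) and Pdia6 (0.44) rose. The stress-death branch was not called: Ddit3 was at -0.10 (adjusted p = 0.633), Atf4 at 0.03 (0.87) and Trib3 at -0.11 (0.648).

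The promoters of Hspa5, Hsp90b1, Creld2 and Derl3 are shown because these 4 rises carry the endoplasmic reticulum stress element, ERSE, which reads CCAAT, 9 bases of any kind and CCACG and which the factors ATF6 and NF-Y are known to bind. As above they are the 250 bases before the start in GRCm38.p6, 5′ to 3′ on the gene's strand, at chr2:34771840-34772089 (+), chr10:86705445-86705694 (-), chr15:88819396-88819645 (+) and chr10:75893148-75893397 (+), with matches on either strand in capitals.
Hspa5: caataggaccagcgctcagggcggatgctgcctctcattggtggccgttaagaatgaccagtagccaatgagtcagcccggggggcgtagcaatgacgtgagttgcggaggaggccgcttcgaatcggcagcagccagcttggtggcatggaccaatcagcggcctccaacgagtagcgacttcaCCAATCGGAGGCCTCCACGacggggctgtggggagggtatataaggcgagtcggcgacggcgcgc
Hsp90b1: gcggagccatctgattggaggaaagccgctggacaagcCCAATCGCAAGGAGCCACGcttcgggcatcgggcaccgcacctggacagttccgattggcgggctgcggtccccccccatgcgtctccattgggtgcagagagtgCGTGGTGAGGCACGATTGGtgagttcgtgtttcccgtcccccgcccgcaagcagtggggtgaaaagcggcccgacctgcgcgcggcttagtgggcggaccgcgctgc
Creld2: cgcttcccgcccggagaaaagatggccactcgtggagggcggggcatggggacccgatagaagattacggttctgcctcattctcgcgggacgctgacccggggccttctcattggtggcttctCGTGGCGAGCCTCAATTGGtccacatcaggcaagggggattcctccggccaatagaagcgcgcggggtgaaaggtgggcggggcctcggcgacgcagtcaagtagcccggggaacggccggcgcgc
Derl3: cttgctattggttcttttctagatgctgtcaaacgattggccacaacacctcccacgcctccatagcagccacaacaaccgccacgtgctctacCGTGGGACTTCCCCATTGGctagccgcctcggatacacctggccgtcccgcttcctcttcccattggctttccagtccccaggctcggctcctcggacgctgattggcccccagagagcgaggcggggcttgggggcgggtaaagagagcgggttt
The element was in 35 of 27025 promoters, 0.130%. It was in 6 of the 16 promoters found for the genes of this list called higher (the 4 shown, Pdia6 and a gene whose call was lost in 7 of the 10 fits) and in 3 of the 16 found for those not called (Calr, Canx and Dnajc3).

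Cell division genes rose in 21 of 37 members, 18 of them in all 10 fits, and fell in 0 (list median 1.16). Mki67, present in cycling cells, was at 41.9, 48.4, 47.4, 88.3 and 43.1 CPM and 217, 289, 192, 281 and 95.5 CPM (2.00 ± 0.31; adjusted p = 0.00256). WT_HDM 5 was the lowest HDM library and lay just above the highest saline library, WT_saline 4. The mitotic genes Cenpe (2.22), Top2a (1.96), Cenpf (1.87), Birc5 (1.86), Kif11 (1.80), Ccnb1 (1.78), Ccna2 (1.74), Aurkb (1.65) and Cdk1 (1.64) and the S phase genes Rrm2 (1.79), Ccne2 (1.79) and Cdc6 (1.53) rose. The replication helicase genes Mcm2 to Mcm7 and Pcna were not called. In the fit without WT_HDM 5, 29 of the 37 members were called higher.

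Other genes among the largest changes belong to none of these groups. Npy, the neurotransmitter neuropeptide Y, had 1 count over the 5 saline libraries and was at 8.86, 2.50, 3.66, 3.77 and 1.34 CPM under HDM. Capn9, a calpain of mucous epithelium, had 4 counts over the saline libraries and was at 4.83, 4.54, 10.6, 4.94 and 4.11 CPM, highest in WT_HDM 3. Cd177, a surface protein best known from neutrophils, was at 4.34, 11.7, 6.47, 7.86 and 7.69 CPM and 183, 205, 283, 121 and 121 CPM (4.58 ± 0.33; adjusted p = 3.8e-05). The mucus-binding gene Fcgbp (4.78), the lectin Itln1 (6.55), 7.40 without WT_saline 2 and 5.81 without WT_HDM 3, the tetraspanin-like Tm4sf19 (4.82) and the squamous envelope genes Sprr2a1 and Sprr2a2 rose; the last pair had the same values in the table. The 20 largest falls included Gdpd2 (-2.53), a phosphodiesterase, Bex2 (-2.26), Azgp1 (-2.25), Fgfbp1 (-1.89), a carrier of fibroblast growth factors, Faim2 (-1.87), Iyd (-1.84), which recovers iodide, Scube2 (-1.83), Spon2 (-1.74) and Cbs (-1.70), which joins serine and homocysteine. Gria1, a glutamate receptor subunit, was at 31.2, 29.5, 36.4, 20.6 and 38.9 CPM and 8.92, 3.55, 6.31, 6.48 and 12.2 CPM (-2.06 ± 0.29; adjusted p = 0.00136). All saline libraries lay above all HDM libraries for Gria1.

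**Figure D4:**
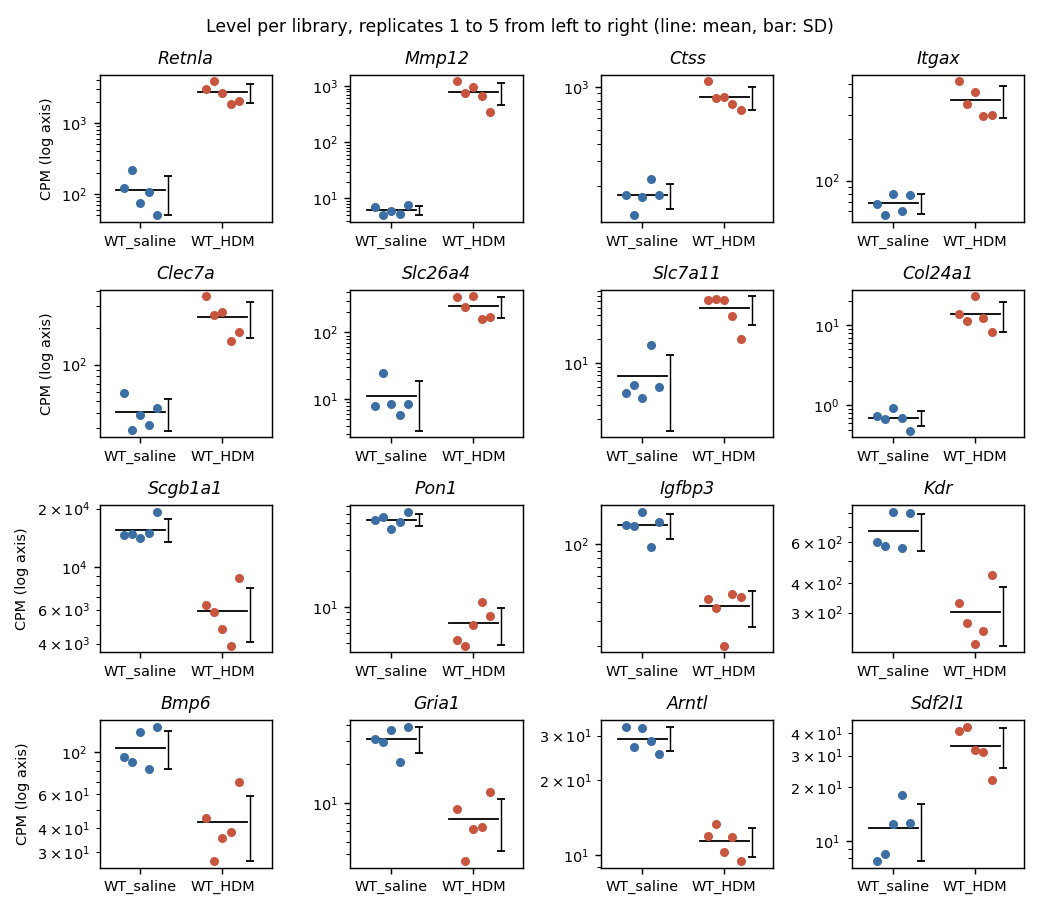
Levels of 16 genes in the 5 WT_saline (blue) and 5 WT_HDM (red) libraries, in CPM on log axes, with the mean as a line and the SD as a bar beside the points. The groups do not overlap in any of the 16 panels; WT_HDM 5, the rightmost red point, is the highest HDM library for Scgb1a1, Kdr and Bmp6 and the lowest for Mmp12, Slc7a11 and Sdf2l1.

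The airway epithelium showed rises of mucus and ion transport genes beside falls of club cell genes. Of 18 goblet cell and mucus genes 12 were called higher and 0 lower, and of 21 airway ion and fluid transport genes 5 higher and 1 lower, all of the latter in all 10 fits. Slc26a4, the anion exchanger pendrin, was at 7.99, 24.5, 8.43, 5.79 and 8.42 CPM and 344, 240.3, 346, 159 and 172 CPM, apart in every library (4.51 ± 0.46; adjusted p = 0.000281). Slc5a1, a sodium and glucose cotransporter, was at 4.52, 8.26, 4.24, 4.83 and 5.01 CPM and 46, 35.5, 46.8, 26 and 38.6 CPM (2.84 ± 0.22; adjusted p = 4.29e-05). Fxyd4 (4.11), a sodium pump regulator, the amino acid transporter Slc6a20a (2.26) and the chloride channel Cftr (0.90) rose, and Scnn1b, a subunit of the epithelial sodium channel, fell (-1.29). The other channel subunits Scnn1a and Scnn1g and the water channel Aqp5 were not called (-0.50, -0.71 and -0.61; adjusted p = 0.142, 0.0527 and 0.0523), although Scnn1g and Aqp5 were each called lower in 9 alternatives.

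Of 18 club cell genes 10 were called lower, all in all 10 fits, and 0 higher (list median -1.04). Their summed level was 18637 to 26333 CPM under saline and 7978 to 11878 CPM under HDM. In the 6 libraries with little Adipoq 8 were called lower and 1 higher (list median -0.77), and Kcnk2 and Aldh1a1 were not called. Scgb1a1 was at 14520.3, 14837, 14161, 14942 and 19314 CPM and 6314, 5799, 4759.8, 3900.3 and 8702 CPM (-1.40 ± 0.23; adjusted p = 0.00312). Cyp2f2, the club cell P450 oxidase, was at 1553, 2824, 2035, 2401 and 2851 CPM and 485, 397, 513, 578 and 836 CPM (-2.05 ± 0.23; adjusted p = 0.000388). WT_HDM 5 was the highest HDM library in both, and neither group touched the other. Scgb1c1 (-2.44), Scgb3a2 (-1.56), Cyp4b1 (-1.46), Hp (-1.16), Cckar (-1.04), Kcnk2 (-1.04), Gabrp (-1.0) and Aldh1a1 (-0.99) fell, whereas Scgb3a1, the secretoglobin of large airways, was not called (0.61, adjusted p = 0.638). The fall extended to enzymes of foreign-compound and aldehyde metabolism, 22 of 39 called lower, 12 in all 10 fits, and 0 higher (list median -0.71). Leaving out WT_saline 3 or 5 or WT_HDM 1, 2, 3 or 4 left 12 to 14 of these enzymes called lower. In the 6 libraries with little Adipoq 12 of them were called lower and 1 higher. Pon1, the paraoxonase, was at 53.6, 56.5, 44.6, 51.5 and 62.8 CPM and 5.32, 4.74, 7.01, 10.9 and 8.36 CPM (-2.88 ± 0.21; adjusted p = 3.68e-05), the largest fall among the genes that the naming rule picks. The methyltransferase Inmt (-1.73), the glutathione transferases Gsta3 (-1.46), Gstm1 (-1.44) and Gstm2 (-1.07), Cyp2d22 (-1.05), Fmo1 (-0.98), Adh1 (-0.91), Ugt1a6a (-0.83) and Ces1d (-0.81) fell, and the oxidant-response gene Nqo1 was not called (-0.71, adjusted p = 0.0872). In contrast to this group the cystine importer Slc7a11 was at 4.15, 5.25, 3.59, 16.8 and 5.01 CPM and 61.9, 64.2, 62.8, 39.2 and 20.2 CPM (2.82 ± 0.50; adjusted p = 0.0049; 3.46 without WT_saline 4), and the iron importer Tfrc (1.08) and the lipid enzyme Acsl4 (0.69) rose.

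Of 20 alveolar type 2 and surfactant genes tested, 2 were called higher, the surfactant lectin Sftpd (1.32) and Chil1 (1.83), and 1 lower, Acoxl (-1.19). Calls thus made up 15% of the list, against 18.2% of all genes. Sftpc, Sftpb (-0.50, adjusted p = 0.204, called lower without WT_HDM 5) and Abca3 (-0.38, 0.223) were not called. Of 15 alveolar type 1 genes 4 were called lower, only Akap5 (-1.21) in all 10 fits, and the defining marker Ager was not called (-0.57, adjusted p = 0.122). Of 29 cilia genes 8 were called lower, 3 of them in all 10 fits (Tppp3 (-1.32), Tekt4 (-0.85) and Rfx2 (-0.80)) and 1 in the 6 libraries with little Adipoq; 3 to 5 were called lower without WT_saline 2, 3 or 5 or WT_HDM 1, 2, 3 or 4. Tekt4 and Rfx2 were not called in the 6 libraries with little Adipoq (adjusted p = 0.096 and 0.0644). The ciliated cell regulator Foxj1 was not called (-0.26, adjusted p = 0.389).

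Several matrix-degrading enzymes and 2 minor collagens rose. Mmp12, the macrophage elastase, was at 7.0, 4.99, 5.93, 5.24 and 7.59 CPM and 1212, 757, 951, 653 and 341 CPM (6.99 ± 0.36; adjusted p = 9.25e-06). Mmp19 was at 24.3, 27.5, 31.2, 22.1 and 31 CPM and 205, 202, 261, 188 and 121 CPM (2.84 ± 0.19; adjusted p = 2.89e-05). Neither overlapped, with WT_HDM 5 lowest of the HDM libraries in both. The collagenase Mmp13 (4.37), the inhibitor Timp1 (3.12), Slpi (2.56), Adam8 (1.82), Serpina3n (1.12) and Adam19 (0.39) rose and Mmp3 (-0.78) fell, in a list of 30 with 12 called higher and 5 lower, of which Mmp3 alone fell in all 10 fits and 1 to 3 were lower without WT_saline 2, 3 or 5 or WT_HDM 1, 2, 3 or 4. Col24a1, a minor fibrillar collagen, was at 0.743, 0.676, 0.924, 0.689 and 0.487 CPM and 13.9, 11.2, 22.8, 12.3 and 8.26 CPM (4.27 ± 0.30; adjusted p = 2.89e-05), and Col6a5 at 1.86, 8.37, 3.86, 9.88 and 2.87 CPM and 52.9, 81.7, 46.7, 37.8 and 25 CPM (3.17 ± 0.49; adjusted p = 0.00267). Among other fibrillar collagens Col3a1 (0.92) and Col5a2 (1.00) rose, and Col1a1 (0.42, adjusted p = 0.272) and Col1a2 (0.32, 0.32) were not called. Col12a1 (-1.03), a collagen gene outside the fibrillar group, fell. The matricellular gene Tnc and Ltbp2 (0.94) rose.

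Of 38 endothelial genes 17 were called lower, 6 of them in all 10 fits, and 0 higher (list median -0.62). Kdr, the main VEGF receptor, was at 601, 580.4, 813, 567 and 801 CPM and 329, 270.0, 220.3, 251 and 436 CPM; all saline libraries lay above all HDM libraries, of which WT_HDM 5 was the highest (-1.16 ± 0.20; adjusted p = 0.00329). Eng (-1.01), Ednrb (-0.99), Tbx2 (-0.98), Pecam1 (-0.70) and Sox18 (-0.70) fell, and Vwf, Plvap and Car4 were not called (0.06, -0.73 and -0.51; adjusted p = 0.827, 0.0545 and 0.135). The summed level was 10015 to 16526 CPM under saline and 6776 to 12349 CPM under HDM. Without WT_HDM 5, 23 members were called lower, 6 to 10 were without WT_saline 3 or 5 or WT_HDM 1, 2, 3 or 4, and 5 were in the 6 libraries with little Adipoq. Eng and Pecam1 were not called in those 6 libraries (adjusted p = 0.0716 and 0.0655). Of 29 BMP and TGF-beta genes 15 were called lower and 3 higher (list median -0.47); without any of the same 6 libraries 7 to 9 were lower, and in the 6 with little Adipoq 7 were. Bmp6 was at 94.1, 89.4, 127, 81.7 and 136 CPM and 45.1, 27, 35.2, 38.3 and 69.4 CPM (-1.30 ± 0.24; adjusted p = 0.00556), and Bmp3 (-1.25), the co-receptor Tgfbr3 (-1.16), Ltbp4 (-1.19), the BMP regulators Bmper (-0.90) and Chrdl1 (-0.87) and the inhibitory Smad6 (-0.78) fell. Smad6 was not called in the 6 libraries with little Adipoq (adjusted p = 0.0677). The 3 rises were Inhba (2.60), which encodes the activin A subunit, the receptor Tgfbr1 (0.96) and Id2 (0.53).

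Igfbp3, the main carrier of insulin-like growth factors, was at 136, 133, 167, 94.8 and 140.2 CPM and 41.9, 36.6, 20.2, 45.7 and 43.7 CPM (-1.83 ± 0.22; adjusted p = 0.000454), and Igfbp6 (-1.13) fell too, while Igf1 (1.40) rose. Fgfr4 (-1.23), Adm (-1.17), Angpt2 (-0.88), Pdgfb (-0.88), Fgf7 (-0.88), Figf (-0.87) (now Vegfd) and Fgfr3 (-0.62) fell and the myeloid growth factor Csf2 (1.53) rose, in a list of 34 with 15 called lower (9 without WT_saline 5 or without WT_HDM 2) and 2 higher. Of 39 Wnt and Notch genes 15 were called lower and 1 higher, with 5 to 7 lower without WT_saline 3 or 5 or WT_HDM 1, 2, 3 or 4 and 3 in the 6 libraries with little Adipoq. Wnt10b (-1.53), Wnt2 (-1.13), Notch3 (-0.91), Fzd2 (-0.74) and Hes1 (-0.56) fell in all 10 fits and Sfrp1 (0.74) rose. Notch3, Fzd2 and Hes1 were not called in the 6 libraries with little Adipoq (adjusted p = 0.0879, 0.0882 and 0.0799). The integrin Itga8 (-1.33), a marker of lung fibroblasts and smooth muscle, fell, whereas Acta2 and Myh11, defining genes of smooth muscle, were not called (-1.03 and -0.74; adjusted p = 0.111 and 0.181).

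**Figure D5:**
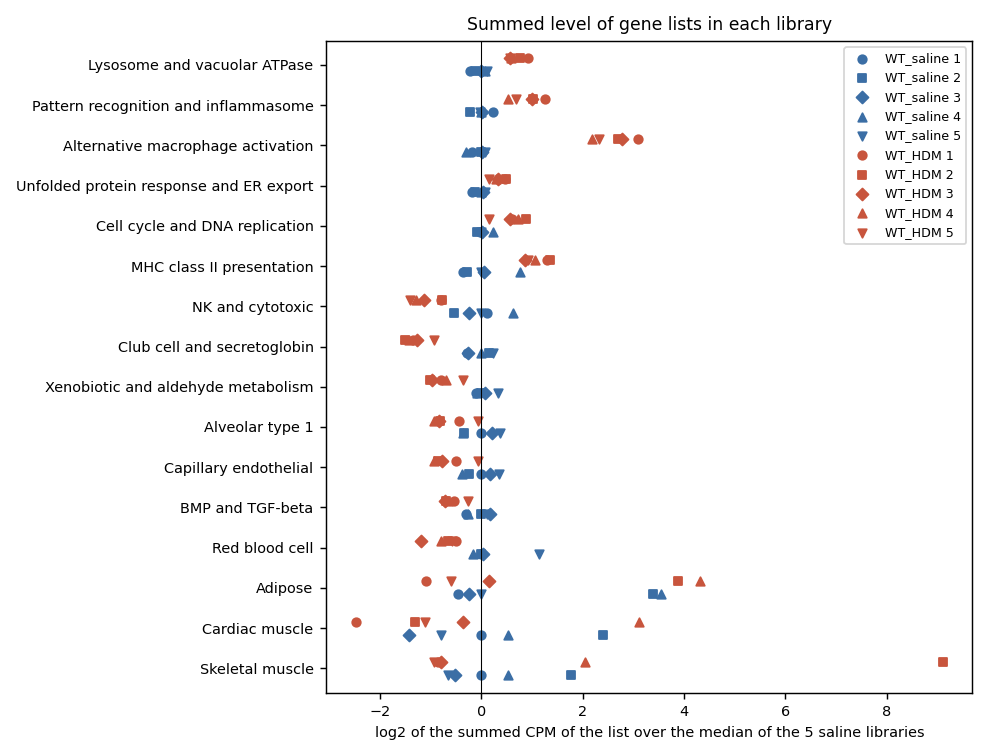
Summed CPM of the members of 16 gene lists in each library, as log2 over the median of the 5 saline libraries; blue is WT_saline, red is WT_HDM and the symbol is the replicate. WT_HDM 5 lies nearest to the saline libraries for the cell cycle, club cell, xenobiotic, alveolar type 1 and endothelial lists, and the fat, heart and skeletal muscle lists differ between libraries of both groups.

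Clock genes changed in opposite directions. Arntl, the activator BMAL1, was at 32.6, 27.1, 32.2, 28.5 and 25.3 CPM and 11.9, 13.3, 10.3, 11.8 and 9.50 CPM, with no overlap (-1.36 ± 0.12; adjusted p = 9.51e-05), and its relative Npas2 (-1.61) fell as well. Dbp, an output factor that BMAL1 drives, was at 10.5, 24.6, 20.01, 16.5 and 28.1 CPM and 36.1, 41.6, 37.2, 55 and 64.8 CPM (1.23 ± 0.26; adjusted p = 0.00945). Bhlhe41 (1.24), Bhlhe40 (1.15), Per3 (0.93), Per2 (0.90) and Nr1d2 (0.79) rose, and the other 12 of 20 members were not called. The hour at which lungs were taken is not given in the sources used here, so a difference in sampling time between the groups cannot be told apart from an effect of HDM.

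Energy genes changed in few members. Of 27 glycolysis and hypoxia genes 4 were called higher, 3 in all 10 fits: Fbp1, a gluconeogenic phosphatase, at 0.248, 0.520, 0.217, 0.322 and 0.341 CPM and 45.5, 28.2, 19.1, 15.3 and 17.7 CPM (6.21 ± 0.39; adjusted p = 2.89e-05), Hk3 (2.00), the hexokinase of myeloid cells, and Hif1a (0.44). Of 33 respiratory chain genes 0 were called higher and 1 lower, the latter in 4 of the 10 fits. Their summed level was 2134 to 4629 CPM under saline and 2307 to 5614 CPM under HDM, highest in each group in the 2 libraries with the most Adipoq.

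Of 10 red cell genes 8 were called lower and 0 higher (list median -1.05). The haem enzyme Alas2 (-1.20) of red cell precursors, Slc4a1 (-1.07), Hbb-bt (-1.05) and Bpgm (-0.72) fell in all 10 fits. Without WT_HDM 2 or without WT_HDM 3 5 members were called lower, and in the 6 libraries with little Adipoq 4 were, Slc4a1 and Bpgm not among them (adjusted p = 0.0711 and 0.0771). Their summed level was 2562 to 6369.8 CPM under saline, highest in WT_saline 5, and 1269 to 2032 CPM under HDM. Globin genes are near-identical copies and the counts of single ones are uncertain. Of 14 platelet genes 7 were called lower (4 without WT_saline 3 or 5 or WT_HDM 2) and 2 higher, with Gp6 (-1.59), Tubb1 (-1.38), Ppbp (-1.29) and Itga2b (-1.07) falling, and with Pf4 (1.19) and Clec1b (1.17) rising, 2 genes that macrophages can also express.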

How the data were processed

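RNA of whole lung was sequenced in 20 libraries, of which 10 are compared. Per the labels' protocols, RNA was selected with oligo-dT beads and libraries were made by the dUTP method, which keeps strand; the same text also names depletion of ribosomal RNA. Reads were handled with Bowtie2 2.1.0 and RSEM 1.2.15 per the submitters' processing notes, which list the genome build as hg38, which is human, whereas symbols in the table are those of the mouse. The build is thus unknown, and coordinates are given only for RefSeq promoters of GRCm38.p6. The deposited values are expected counts, the estimates RSEM makes for each gene, with no normalization by the authors. Reads of similar genes are divided among them, so single members of gene families (globins, Chil3 and Chil4, ribonucleases, mast cell proteases, Sprr2a1 and Sprr2a2) are uncertain. Results for some genes are not reported here. Libraries are biological replicates by label, and nothing more is said of cages or preparation days, so p-values measure the spread between these libraries.

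Expected counts were rounded. Genes were filtered by filterByExpr, scaled by TMM and tested with edgeR 4.0.16 under R 4.3.3 (robust quasi-likelihood F test, the 10 libraries only). P-values were adjusted by Benjamini-Hochberg over all 15693 genes, and genes under 0.05 are called. Fold changes are log2 ± SE and levels are CPM scaled by TMM. Transcript lengths are the longest coding transcripts of GENCODE M21, or the longest of any kind for genes without a coding one, matched by symbol for 15281 genes. Motifs were searched in 1 RefSeq promoter per gene, the first listed of 300 bases. Tested on simulated counts of 15587 genes, the fit recovered 73.5% of 2-fold changes and 93.9% of 4-fold changes, with 2.37% false calls. In that simulation 200 genes were changed, and genes varied independently at the fitted spreads, without RNA of other tissues that moves many genes together. The share of false calls in the real comparison was not measured.

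The gene lists, the members and the named genes were chosen with earlier results of these data known, so counts over lists are descriptions. Named genes are the 20 largest rises and falls (called genes whose groups do not overlap and whose mean log2 CPM is at least 1, leaving out predicted genes), the 10 largest gains and losses in CPM, and the key and up to 4 called members of each list. Other genes were named after their values were seen, mostly because their calls held in all 10 fits that leave out a library. After the table was seen, the mucus list's Clca1 was matched to the symbol Clca3, since the table's entry under the newer symbol is another gene. Alternatives were other scaling, filters, tools and thresholds, a replicate block, all 20 libraries, and fits without Rn45s, without 4 libraries with Adipoq at 50 CPM or more or without the library with Ckm at 100 CPM or more; a fit with a term for Adipoq was added after the data were seen. DESeq2 was version 1.42.0 and limma 3.58.1.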

Additional observations from a re-analysis of the deposited data

Results flagged for a closer look

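Within each group of 5 libraries, the highest and the lowest value of each named quantity were compared with the rest. A value is given here where its gap to the nearest of the others was more than 0.710 of the whole range of the group. Of 748 groups tested 73 had such a value, and chance gives about 1 in 20. Values are CPM and come with no explanation. In WT_saline 1 the highest values that stood apart were those of Ncr1 (9.10) and Tlr4 (53.1). In WT_saline 1 the lowest values that stood apart were those of Bhlhe40 (33.8) and Cd63 (78.8). In WT_saline 2 the highest values that stood apart were those of Acta2 (598), Ccl24 (1.72), Ckm (30.1), Duox1 (0.780), Inhba (4.0), Myh11 (761), Myh6 (1554), Slc26a4 (24.5) and Slc5a1 (8.26). In WT_saline 3 the highest values that stood apart were those of Gp6 (1.25) and Nos2 (8.54). In WT_saline 4 the highest values that stood apart were those of Aurkb (4.69), Birc5 (5.79), Ccl5 (59.4), Ccl8 (5.15), Ccna2 (10.2), Ccnb1 (6.16), Cd3e (52.7), Cfp (35.6), Cxcl9 (9.83), Flt3 (17.2), H2-Aa (640.5), Kif11 (15), Marco (92), Mki67 (88.3), Ms4a1 (84), Mzb1 (12.3), Rrm2 (14.8), Slc7a11 (16.8) and Top2a (50.8). In WT_saline 5 the highest values that stood apart were those of Alas2 (159), Bpgm (95.8), Gsta3 (121), Hbb-bt (404), Mcpt1 (0.0487), Npy (0.0487), Ptgs2 (38.2), Scgb1a1 (19314) and Spp1 (88.2). In WT_HDM 1 the highest values that stood apart were those of Csf2 (9.66) and Flt3 (21.3). In WT_HDM 2 the highest values that stood apart were those of Ckm (426), Cxcl10 (5.0), Edem2 (57) and Nqo1 (4.54). In WT_HDM 3 the highest values that stood apart were those of Capn9 (10.6), Ccr3 (5.92), Chil4 (2658), Fcgbp (1147), Pla2g4c (15.1) and Ptgdr (7.48). In WT_HDM 3 the lowest values that stood apart were those of Adm (2.03), Apoe (241), Gstm2 (32.8) and S1pr3 (30.8). In WT_HDM 4 the highest value that stood apart was that of Myh6 (2473). In WT_HDM 5 the highest values that stood apart were those of Aldh1a1 (573), Chrdl1 (18.8), Cxcl12 (291), Cxcl14 (41.7), Fzd2 (21.7), Gabrp (71.8), Kcnk2 (30.6), Notch3 (139.8) and Tppp3 (134). In WT_HDM 5 the lowest values that stood apart were those of Edem1 (174), Hk3 (10.4), Pla2g7 (30.6) and Tm4sf19 (1.14).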

How the results depend on the processing

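No call of the full set changed direction under any alternative that was run. The number of called genes, 2854, was 2702 to 3894 with other scaling factors, filters or tools, without Rn45s or without robust estimation, of which DESeq2 gave 3894. It was 3882 with a term for Adipoq, which kept 2851 of the 2854 calls. With all 20 libraries sharing the spread it was 4866 (2198 higher and 2668 lower). Without the 4 libraries with Adipoq at 50 CPM or more, 3 against 3, it was 1492, with 513 lower, and 65.6% of the calls were higher in place of 49.0%. That fit kept 1227 of the 2854 calls, 43.0%. Without the library with Ckm at 100 CPM or more, which is WT_HDM 2, it was 1736, with 667 lower. At an adjusted p under 0.01 it was 960 (615 higher, 345 lower and 555 of at least 2-fold). Leaving out each library in turn gave 1623 to 3919 called genes, 944 to 1960 higher, 615 to 1959 lower and 686 to 1211 of at least 2-fold.

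Replicate numbers are shared by the groups, but the deviations of same-numbered libraries correlated at 0.213, 0.173, -0.0196, 0.407 and 0.526, and 2 of 5 libraries correlated best with their own number, so the numbers were not taken to pair them. With a replicate block 3358 genes were called, 1625 higher and 1733 lower.

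The call of Alox15 was lost without WT_saline 3, 4 or 5 or WT_HDM 1, 2, 3 or 4 and without a filter on low counts, with adjusted p-values of 0.0622 to 0.0983 in those fits, and its log2 fold change was 2.64 without WT_saline 2. The smallest library has 12573113 counts, so changes in genes under about 1 CPM rest on few counts. Of the 313 named genes with a call, 38 were not called in the 6 libraries with little Adipoq. Many of the 313 were named because their calls were stable, so this share does not stand for all calls. Those of the 38 not named as lost in their paragraphs were Ccl3, Spp1, Cbr2, Lpar3, S1pr3, Nr1h3 and Fgfr3. Nos2 and Ccl24 lost their calls in limma voom, Cd68 with the replicate block, and Gp6, Prg2 and Ptgdr were filtered out at a minimum of 1 CPM in 5 libraries. Of the genes given as not called, 18 were called in at least 1 alternative, Scnn1g and Aqp5 in 9 alternatives each, Ms4a1 and Plvap in 8 each, and Cfp and Nqo1 in 6 each.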

Other observations

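A pair of coagulation genes best known from the liver were among the rises. F10 (2.73), which encodes factor X, was at 6.38, 6.24, 7.18, 4.37 and 7.45 CPM and 53.2, 47.4, 54.3, 31.7 and 23.8 CPM (adjusted p = 0.000101), and F7 (2.39), which encodes factor VII, was at 8.05, 7.59, 10.5, 6.30 and 11.5 CPM and 55.9, 50.6, 59.2, 32.2 and 32.3 CPM (adjusted p = 0.000144). Neither gene's groups overlapped. The liver gene Alb was at most at 0.805 CPM in the 10 libraries, and 1 of 3 tested members of the liver list was called higher, though not in all 10 fits. Which cells made F10 and F7 was not tested. These and the genes that follow were chosen after their values were seen. The myeloid chemokine receptor Ccr1 (2.24), the CD200 receptor family genes Cd200r1 (2.24) and Cd200r4 (1.97), the scavenger receptor Msr1 (2.33) and the pantetheinase Vnn1 (2.12) rose. The tryptophan pathway enzyme Kynu (1.80) and the creatine pathway enzyme Gatm (2.37) rose as well.

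Nuggc, a gene of germinal centre B cells, was at 0.0619, 0.520, 0.272, 0.689 and 0 CPM and 7.33, 3.03, 4.52, 8.23 and 1.38 CPM (3.92 ± 0.72; adjusted p = 0.00537). The oxidase Duox1 (4.12) of airway epithelium, 5.17 without WT_saline 2, and the oxidase organiser Noxo1 (1.60) rose. The fibroblast regulator Tcf21 (-1.16), the adrenergic receptor Adra1a (-1.44), the receptor Vipr2 (-1.48) for vasoactive intestinal peptide and Colq (-1.37), the anchor of acetylcholinesterase, fell in all 10 fits.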
